A study of Mus musculus with 24 samples.

Results

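The regions described here are iMRs from whole-genome bisulfite sequencing (WGBS, which reads cytosine methylation at single bases) that overlap by at least 1 bp a peak of H3K4me3, the trimethylated histone mark of gene starts, in the untreated or the vitamin C library. Of 8374 iMRs, 774 met this rule (9.24%, exact 95% interval 8.63 to 9.88). Members were thus chosen by measured methylation calls and measured H3K4me3 peaks, and neither is offered as a finding. The labels do not spell out iMR or its counterpart deMR, nor which libraries were compared to call them. The iMR list is attached to the untreated sample of mutant cells and the deMR list to the vitamin C sample.

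The cells were mouse bone marrow cells immortalized with HOXA9, and all files used here except 1 list came from cells with a vector expressing IDH1 R132H. The mutant enzyme makes 2-hydroxyglutarate, an inhibitor of dioxygenases that include the TET family of 5-methylcytosine oxidases. Treated cells received vitamin C at 0.345 mM at 0, 24 and 48 h and were harvested at 72 h, while the harvest time of untreated cells is not given. All cells grew with IL-3, IL-6 and SCF, and a region list of the MeDIP assay attached to untreated wild-type IDH1 cells was also used. The 24 samples formed 24 groups of 1 library, which allows no test between conditions.

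H3K4me3 marks the starts of active and poised genes, most of them in CpG islands, stretches rich in CG dinucleotides that usually lack cytosine methylation. Methylation of such an island is known to go with silencing of its gene. In female mammalian cells the CpG islands of the silenced X chromosome are methylated while those of the active X are not. The labels do not give the sex of the donor animals.

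The RNA libraries held 86804487 counts untreated and 111453443 with vitamin C, and the depth of the WGBS and ChIP-seq libraries is unknown. Region and peak lists carry no coverage, so each share below has an exact Clopper-Pearson 95% interval that covers counting error only. Neighbouring regions can share a locus: merging members less than 1 kb apart left 745 loci. Myeloid markers in RNA ran from Kit at 32.1 to Ctsg at 2101 and Hoxa9 at 3062 RPKM untreated. Because the cells were immortalized with HOXA9, the Hoxa9 value is not read as a sign of lineage. With vitamin C Kit stood at 5.07 RPKM, Mpo went from 796.3 to 130.6 and Cd34 from 298.5 to 498.0. All 4 T cell and all 4 B cell markers stayed at or below 0.116 RPKM. Of the erythroid markers, Hbb-bs stood at 339.9 RPKM untreated, while Hba-a1, Klf1 and Epor stayed at or below 0.553. Of the fibroblast markers, Pdgfrb stood at 28.0 RPKM untreated, while Col1a1, Col1a2 and Dcn stayed at or below 0.0272.

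Members were short, with a median length of 217.5 bp and a range of 6 to 1349 bp, close to the 201 bp median of deMRs in H3K4me3. Peaks of both libraries held 657 members (84.9%), the untreated list alone 35 and the vitamin C list alone 82. Of the 739 members in a vitamin C peak, 492 lay wholly inside it (66.6%). At the edge of the rule, members near Satb1, Trpc1 and Ap1s2 overlapped a peak by 4 bp, and 80 of the 7600 other iMRs ended within 100 bp of a peak without touching it. The middle of a member lay at a median of 0.562 of the way from the centre to the edge of its vitamin C peak, against 0.557 for deMRs. By the authors' value per peak, the vitamin C peaks of members ranked at a median of 34.8% of the list, counted from the strongest. Counted once per region, the vitamin C peak of a member had a median width of 1257 bp and that of a deMR 1086 bp. Counted once per peak, the whole list had a median of 769 bp. An overlap rule favours wide peaks, so nothing is read from this width.

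The sequences of 8 members are shown, which lets the CG content of these regions be read directly. These members cover at least 100 of the 250 bases before a gene start. Only genes named for member length, number of members, RNA change, RNA abundance or a MeDIP or hMeDIP region were searched, not every gene named below. The letters come from RefSeq promoter windows of GRCm38.p6, run 5′ to 3′ on the strand of the gene, and carry CG in capitals. The Slc25a5 stretch ends 22 bases before the gene start and the other 7 run up to it.

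Stretches on autosomes, at Aff3 (chr1:38627245-38627494, minus strand), Ednrb (chr14:103843702-103843951, minus), Itga1 (chr13:115101965-115102206, minus), Vcan (chr13:89742513-89742762, minus), Cul9 (chr17:46546389-46546617, minus) and S1pr3 (chr13:51408449-51408617, plus):
Aff3: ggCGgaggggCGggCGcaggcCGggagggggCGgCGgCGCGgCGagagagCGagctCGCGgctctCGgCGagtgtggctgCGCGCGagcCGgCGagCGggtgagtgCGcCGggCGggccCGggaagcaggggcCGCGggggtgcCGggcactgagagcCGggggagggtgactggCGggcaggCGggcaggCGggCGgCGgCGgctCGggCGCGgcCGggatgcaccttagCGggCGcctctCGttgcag
Ednrb: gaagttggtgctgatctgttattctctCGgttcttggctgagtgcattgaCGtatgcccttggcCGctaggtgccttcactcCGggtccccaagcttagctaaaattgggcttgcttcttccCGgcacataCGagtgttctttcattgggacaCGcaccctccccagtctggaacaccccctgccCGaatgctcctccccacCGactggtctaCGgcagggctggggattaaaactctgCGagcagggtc
Itga1: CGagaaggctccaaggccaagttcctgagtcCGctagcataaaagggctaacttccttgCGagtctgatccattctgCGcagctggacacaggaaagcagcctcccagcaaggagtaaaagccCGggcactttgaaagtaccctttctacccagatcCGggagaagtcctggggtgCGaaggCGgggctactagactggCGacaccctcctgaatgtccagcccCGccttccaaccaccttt
Vcan: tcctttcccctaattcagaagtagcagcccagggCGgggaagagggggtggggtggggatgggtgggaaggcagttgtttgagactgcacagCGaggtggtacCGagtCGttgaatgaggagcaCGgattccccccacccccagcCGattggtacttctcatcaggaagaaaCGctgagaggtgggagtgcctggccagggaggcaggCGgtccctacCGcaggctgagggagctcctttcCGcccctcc
Cul9: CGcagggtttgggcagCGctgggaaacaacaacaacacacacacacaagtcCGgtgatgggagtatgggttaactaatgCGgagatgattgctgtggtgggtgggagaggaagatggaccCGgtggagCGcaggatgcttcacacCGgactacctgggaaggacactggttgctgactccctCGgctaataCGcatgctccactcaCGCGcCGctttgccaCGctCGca
S1pr3: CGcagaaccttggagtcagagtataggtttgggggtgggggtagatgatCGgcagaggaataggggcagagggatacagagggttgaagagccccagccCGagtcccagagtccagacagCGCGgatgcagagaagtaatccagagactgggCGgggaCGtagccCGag

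Stretches on the X chromosome, at Slc25a5 (chrX:36795347-36795575, plus) and Tsc22d3 (chrX:140600523-140600648, minus):
Slc25a5: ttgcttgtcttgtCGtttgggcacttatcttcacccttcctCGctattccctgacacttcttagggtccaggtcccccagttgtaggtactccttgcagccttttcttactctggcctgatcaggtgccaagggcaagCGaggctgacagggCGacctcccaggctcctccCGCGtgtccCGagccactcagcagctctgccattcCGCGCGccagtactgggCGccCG
Tsc22d3: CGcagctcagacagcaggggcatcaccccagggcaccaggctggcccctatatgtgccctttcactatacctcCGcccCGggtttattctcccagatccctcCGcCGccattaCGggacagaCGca

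The Aff3 stretch was dense in CG, with 41 in 250 bases or 16.4 per 100 bases. The other 7 held between 4.00 per 100 bases at Vcan and 6.11 at Cul9. The 250 bases before the start had a median of 2.40 CG per 100 bases over all 32851 promoter windows of the table, with quartiles of 0.800 and 6.40. The dinucleotide CG, which reads the same on both strands, occurred in 94.6% of all windows. Both kinds of region began and ended on CG wherever a window allowed a look: 239 of 239 iMR starts and 220 of 220 iMR ends did so.

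Members were concentrated on the X chromosome. Of the 774 members 194 were on X (25.1%, 22.0 to 28.3), against 367 of the 7600 other iMRs (4.83%) and 106 of the 1801 deMRs in H3K4me3 (5.89%). The H3K4me3 lists themselves had 2.71% of their peaks on X untreated and 2.51% with vitamin C. Read the other way, 34.6% of the 561 iMRs on X lay in H3K4me3 (30.6 to 38.7), and 7.42% of the 7813 autosomal iMRs did (6.85 to 8.03). No autosome reached the X share: the shares ran from 4.90% on chromosome 1 to 10.2% on chromosome 13.

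The same contrast held when gene starts rather than regions were counted. Among protein-coding genes with a stranded start inside an H3K4me3 peak, 71 of 204 on X had a member within 1 kb (34.8%, 28.3 to 41.8). On the autosomes 166 of 8065 did (2.06%, 1.76 to 2.39). Single autosomes ranged from 1.22% on chromosome 19 to 3.40% on chromosome 12, and chromosome 18 was not included for want of stranded starts. The deMRs were also more frequent at X starts, at 32 of 204 (15.7%) against 133 of 8065 (1.65%), although by a smaller margin. Of the X starts 12 had both kinds of region, 59 a member only, 20 a deMR only and 113 neither.

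**Figure D1:**
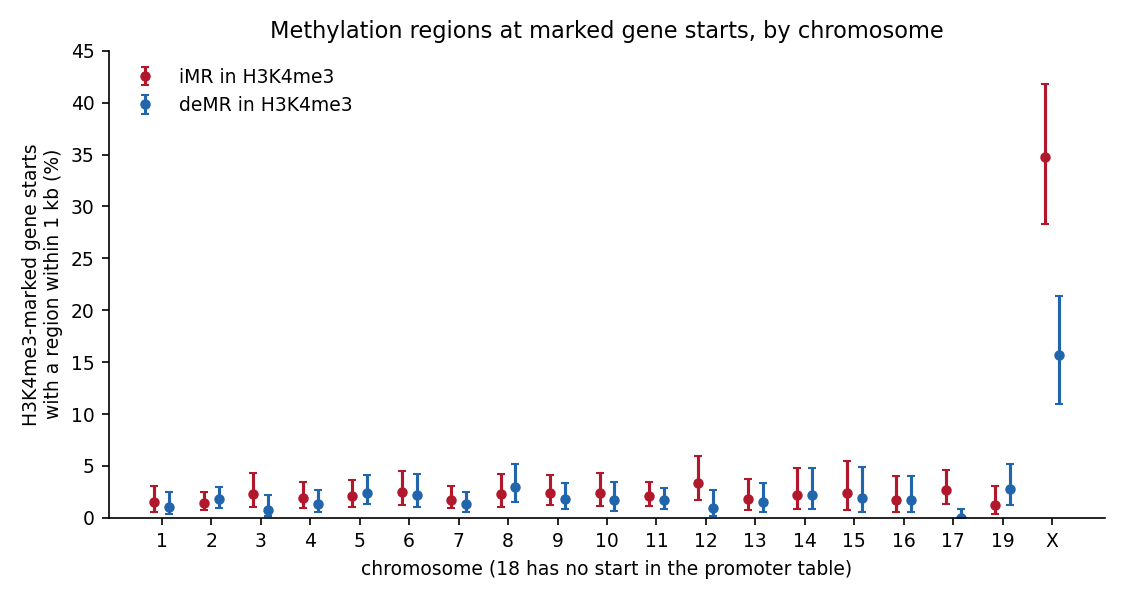
Share of H3K4me3-marked protein-coding gene starts with an iMR in H3K4me3 (red) or a deMR in H3K4me3 (blue) within 1 kb, by chromosome; points are shares and bars exact 95% intervals for counting error. X stands at 34.8% for iMRs and 15.7% for deMRs, above every autosome.

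X genes more often had several members. Of the 137 X genes within 5 kb of a member, 24 had 2 or more, against 11 of 331 autosomal genes. Tsc22d3, which encodes a glucocorticoid-induced leucine zipper protein, had 3 and was the sole gene with so many. Slc25a5 (a mitochondrial ADP/ATP carrier), Tmsb4x (thymosin beta-4, an actin-binding peptide), Flna (the actin cross-linker filamin A), Rbbp7 (a histone-binding chaperone) and Cask (a scaffold kinase) had 2 each. The Y-linked genes Kdm5d, Ddx3y and Eif2s3y had 0 reads in both RNA libraries and Uty had 1 untreated read. The part of donor sex in the X share was not tested.

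Members lay close to gene starts, and more so on X. Within 1 kb of a protein-coding start lay 390 members (50.4%, 46.8 to 54.0), against 10.3% of other iMRs and 15.0% of deMRs in H3K4me3. H3K4me3 marks gene starts, and other iMRs were those without it, so the rule favoured the contrast with them in advance. The deMRs met the same H3K4me3 rule as members. On X the share was 72.7% of members (65.8 to 78.8), on autosomes 42.9% (38.9 to 47.1). The deMRs in H3K4me3 stood at 64.2% on X (54.3 to 73.2) and at 203 of 1695 on autosomes (95% interval 10.5 to 13.6%), so the gap between both kinds of region was wide on autosomes and within the intervals on X. Where the strand of the start was known, the middle of 105 of 142 X members and 155 of 249 autosomal members was downstream of it. Over all of them, upstream ones included, the median position was 231 bp downstream on X and 203 bp on autosomes. A further 270 members lay over 5 kb from any such start, 103 of them inside a protein-coding gene, 16 within 1 kb of the start of a long noncoding RNA and 32 on X.

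**Figure D2:**
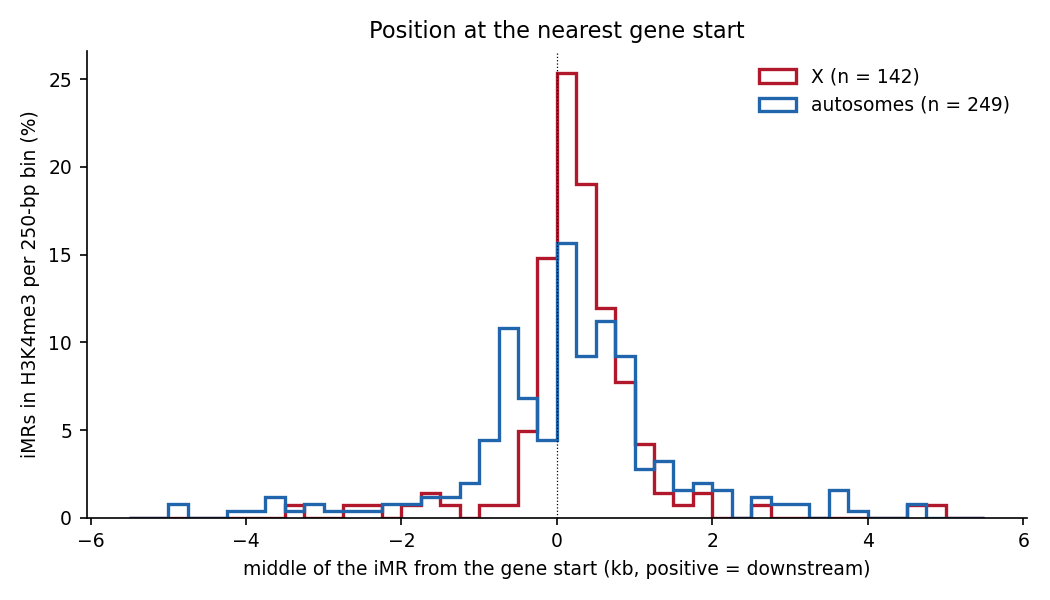
Distance from the gene start to the middle of each member with a stranded start within 5 kb (x axis, kb, positive downstream; y axis, percent of members per 250-bp bin), for 142 X members (red) and 249 autosomal members (blue). Both peak just downstream of the start, with medians over all members of 231 bp and 203 bp, and the autosomal members spread more widely.

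H3K27ac, an acetylation found at active starts and enhancers, covered 387 of the 774 members untreated (50.0%, 46.4 to 53.6) and 381 with vitamin C (49.2%, 45.6 to 52.8). In 355 members both libraries had the peak. On X 66.5% of members overlapped the untreated list and on autosomes 44.5%, while the deMRs in H3K4me3 stood at 70.8% and 65.1%. Outside H3K4me3 the iMRs were nearly free of H3K27ac, at 0.382%. Both marks are found at active starts, so the rule favoured that contrast in advance. Autosomal members overlapped H3K27ac less often than autosomal deMRs in H3K4me3, with intervals of 40.4 to 48.6 and 62.8 to 67.4.

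H3K4me1, the monomethyl mark that flanks starts and marks enhancers, split the members by chromosome. On autosomes 48.3% overlapped an untreated peak (44.1 to 52.4) and 34.8% a vitamin C peak, and on X 5.67% (2.86 to 9.92) and 1.55%. The deMRs in H3K4me3 had the same split, at 70.3% on autosomes and 7.55% on X untreated. The vitamin C list was itself shorter, 45657 against 57750 peaks.

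PU.1, a transcription factor of the myeloid lineage, overlapped 58 members untreated (7.49%) and 20 with vitamin C (2.58%). All 20 were among the 58. Its vitamin C list held 23522 peaks against 61611 untreated, and the share of deMRs in H3K4me3 with a PU.1 peak went from 19.7% to 8.38%. Runx1, a regulator of blood cell development, ran the opposite way, with 11 members untreated (1.42%) and 33 with vitamin C (4.26%), the 11 again contained in the 33. Its lists held 3908 and 6250 peaks. With 1 library each, list length and a change of binding cannot be told apart.

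Among autosomal members PU.1 untreated differed with distance from gene starts. Those over 5 kb from a start overlapped PU.1 untreated in 32 of 238 cases (13.4%, 9.38 to 18.4), and those within 1 kb in 9 of 249 (3.61%, 1.67 to 6.75). H3K4me1 untreated overlapped 52.9% of the distant members (46.4 to 59.4) and 42.6% of the near ones (36.3 to 49.0). H3K27ac untreated overlapped 48.7% and 39.8%. The intervals overlap for both histone marks, and with vitamin C also for H3K4me1 (35.7% and 30.1%) and PU.1 (5.04% and 1.61%).

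Runx1 peaks overlapped members mostly on X. Of the 33 members in a vitamin C Runx1 peak, 28 were on X (14.4% of X members, 9.81 to 20.2), against 0.862% of autosomal members (0.280 to 2.00). The deMRs in H3K4me3 had the same split, at 5.66% on X (2.11 to 11.9) and 1.00% on autosomes, and their X interval overlaps that of the members. Of these 28, 23 lay within 1 kb of a protein-coding start and 12 covered one. They included members at Hdac6 (a cytoplasmic deacetylase), Med14 (a Mediator subunit), Atp6ap1 (a proton pump accessory subunit), Rbbp7 and Cask. The autosomal cases near a gene were at Plrg1, Trim14, Pik3cd (a leukocyte PI3-kinase subunit) and Cdkn1c (a cyclin-dependent kinase inhibitor). Members on X also covered a protein-coding start more often, at 20.6% against 6.21% on autosomes. At H3K4me3-marked starts the order was the other way. A vitamin C Runx1 peak lay within 1 kb of 15.5% of X starts with a member (8.00 to 26.0) and 25.9% of autosomal ones (19.4 to 33.3). Without a member the shares were 22.6% and 43.2%.

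**Figure D3:**
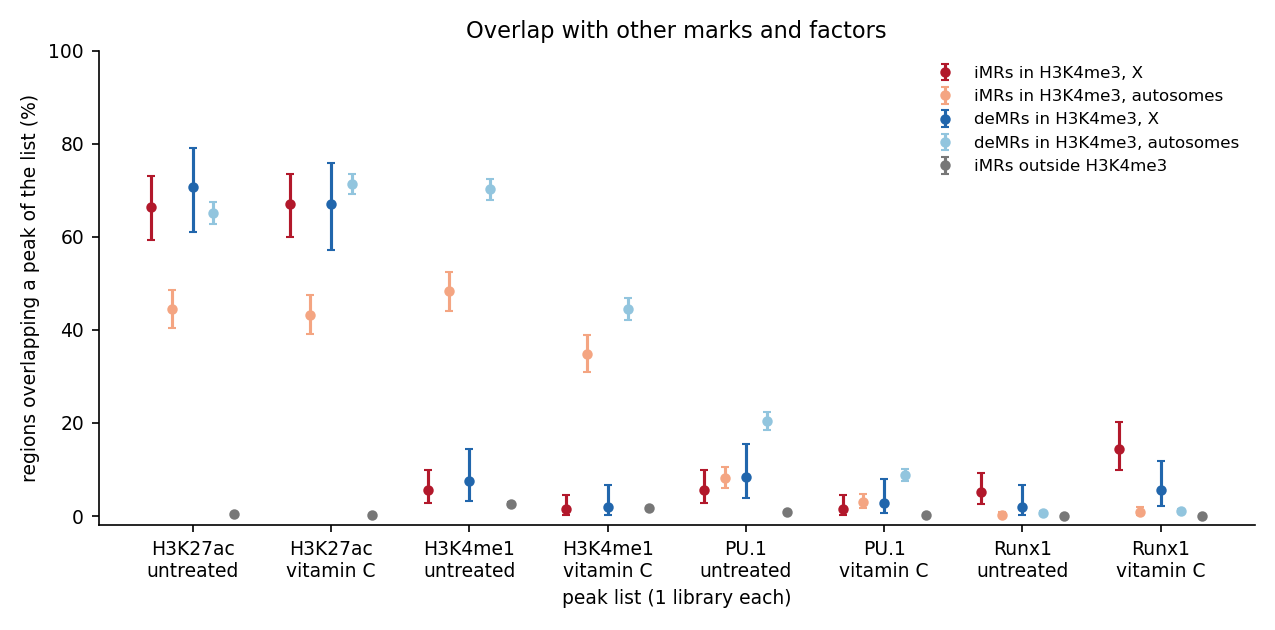
Percent of regions overlapping each peak list by 1 bp or more, for iMRs in H3K4me3 on X and autosomes, deMRs in H3K4me3 on X and autosomes, and iMRs outside H3K4me3; bars are exact 95% intervals. H3K4me1 is low on X for both kinds of region, H3K27ac is lower for autosomal members (44.5% untreated) than for autosomal deMRs (65.1%), and vitamin C Runx1 peaks reach 14.4% of X members.

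Marked gene starts with and without a member were also set side by side. Here a peak within 1 kb of the start was counted, not overlap with the member itself. On X, H3K27ac lay within 1 kb of 59 of 71 starts with a member (83.1%, 72.3 to 91.0) and of 114 of 133 without (85.7%, 78.6 to 91.2). On autosomes it lay near 104 of 166 starts with a member (62.7%, 54.8 to 70.0) and 6855 of 7899 without (86.8%, 86.0 to 87.5). H3K4me1 was scarce at X starts either way, at 14.1% and 21.8% untreated, and common at autosomal starts either way, at 56.0% and 57.3%.

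Both factors were less frequent at autosomal starts with a member. In the untreated library PU.1 lay near 22.3% of those (16.2 to 29.4) and 41.5% of the others (40.5 to 42.6). With vitamin C Runx1 lay near 25.9% (19.4 to 33.3) and 43.2% (42.1 to 44.3). The X starts gave 21.1% against 28.6% in the PU.1 list and 15.5% against 22.6% in the Runx1 list, with overlapping intervals. The CG content of the starts had a median of 18 per 300-base window at X starts with a member, 15 without, 19 at autosomal starts with a member and 21 without, against 7 over all windows.

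**Figure D4:**
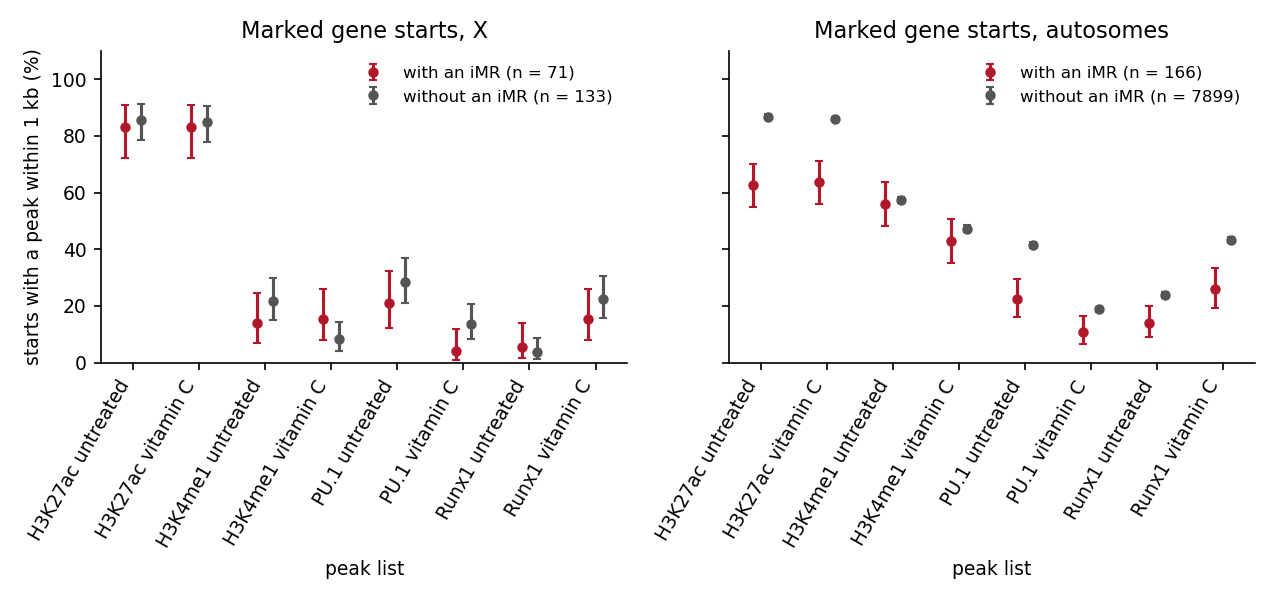
Percent of H3K4me3-marked gene starts with a peak of each list within 1 kb, for starts with (red) and without (grey) an iMR in H3K4me3 nearby, on X (left) and autosomes (right); bars are exact 95% intervals. The groups overlap in every list on X, while on autosomes starts with an iMR are lower for H3K27ac, PU.1 and Runx1 in both libraries.

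The enrichment assays MeDIP-seq and hMeDIP-seq, which pull down methylated and hydroxymethylated DNA, gave 20364 regions in 4 lists with 0 on X, so the autosomal members alone could be compared. Of 580 autosomal members 46 overlapped at least 1 of these lists. The mutant MeDIP list, attached to the wild-type sample, overlapped 32 (5.52%), against 2.36% of autosomal deMRs in H3K4me3. MeDIP iMRs overlapped 9 (1.55%) against 0.0590%, and MeDIP deMRs overlapped 0 of 580, which allows up to 0.517%, against 3.19%. The hMeDIP iHRs overlapped 10 (1.72%, 0.830 to 3.15) against 4.01% (3.13 to 5.06). For the mutant MeDIP list and MeDIP iMRs the intervals of members and deMRs did not overlap (3.80 to 7.70 against 1.69 to 3.20, and 0.712 to 2.93 against 0.00149 to 0.328). Of the other autosomal iMRs, 1.02% overlapped the mutant MeDIP list (0.804 to 1.28) and 0.705% the MeDIP iMRs (0.525 to 0.926), the last with an interval that overlaps that of the members.

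The longest member, 1349 bp at chr14:103842976-103844324, covered the start of Ednrb, the endothelin receptor type B, and lay in both the mutant MeDIP list and the MeDIP iMRs. Ednrb had 0 reads in both libraries. The second longest on a gene start, 1065 bp at chr1:38627020-38628084, covered a start of Aff3, a nuclear protein of the super elongation complex family, and lay in the mutant MeDIP list. Members of 867 bp at Itga1 (integrin alpha 1) and 747 bp at Vcan (the matrix proteoglycan versican) were in the same list, and those at Cul9 (a cullin, 769 bp) and S1pr3 (a sphingosine-1-phosphate receptor, 667 bp) were MeDIP iMRs. Itga1 stood at 0.198 RPKM untreated and 0.0611 with vitamin C, Cul9 at 5.25 and 3.29, and S1pr3 at 8.61 and 5.32. The long members nearest Vps8 and Commd3 lay 89411 and 63072 bp from those starts, so no gene is assigned to them. The other long members lay near Arhgef12 (1215 bp, 602 bp from the start), Nmral1 (998), Ptpn21 (975), Cask (969), Guca1b (931), Gng11 (889) and Nkpd1 (819), the last in both the MeDIP iMRs and the hMeDIP iHRs. Of these genes Gng11, a G protein gamma subunit, was the most abundant, at 21.5 and 30.1 RPKM. A 712-bp member 283 bp from the start of Parm1, which had 0 reads, was an hMeDIP iHR.

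In RNA, 468 protein-coding genes had a start within 5 kb of a member, and 455 of them were in the expression table. Of these, 311 reached 1 RPKM in at least 1 library (68.4%, against 46.6% of all 22371 genes). Members were chosen in a mark of active and poised starts, so an excess over all genes was favoured in advance. Among genes near deMRs in H3K4me3, 82.7% reached 1 RPKM. RPKM is the read count scaled by gene length and library size, and changes are given as log2 of the vitamin C over the untreated RPKM after adding 0.5 to each. Of these 311 genes, 4 were higher by 2-fold or more with vitamin C (1.29%) and 13 were lower (4.18%). Over all 10436 genes at 1 RPKM the shares were 2.38% higher and 1.92% lower. The median log2 change was −0.07 over the 311 genes and −0.04 over all genes. The remaining 294 genes stayed within 2-fold. At 1.5-fold 20 genes were higher (6.43%, against 6.21% of all genes) and 30 lower (9.65%, against 6.64%). Of the 36 genes near members in a vitamin C peak alone, 18 reached 1 RPKM, with 0 higher and 1 lower by 2-fold.

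Expressed genes were less frequent among autosomal marked starts with a member than among those without. Of autosomal genes with a member at a marked start 64.4% reached 1 RPKM, against 86.7% of those without, and on X the shares were 87.1% and 85.3%. The difference between X and autosomes was not tested. Among genes that reached 1 RPKM the untreated median was 8.92 RPKM with a member and 15.8 without on autosomes, and 11.1 and 13.0 on X. Members near X genes gave 110 expressed genes with 1 higher and 3 lower, and autosomal members 201 with 3 higher and 10 lower. The shares higher were 0.909% on X, against 1.71% of all expressed X genes, and 1.49% on autosomes, against 2.38% of all expressed genes. The shares lower were 2.73% on X, against 2.74% of all 292 expressed X genes. On autosomes the share lower was 4.98%, against 1.92% of all expressed genes, X included. Among expressed genes near other iMRs 3.55% were higher and 4.96% lower, and near deMRs in H3K4me3 3.45% and 3.22%. Genes near other iMRs were mostly silent, with 141 of 1160 at 1 RPKM (12.2%). Those iMRs were set apart by lacking H3K4me3, a mark of active and poised starts, so nothing is read from that share.

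**Figure D5:**
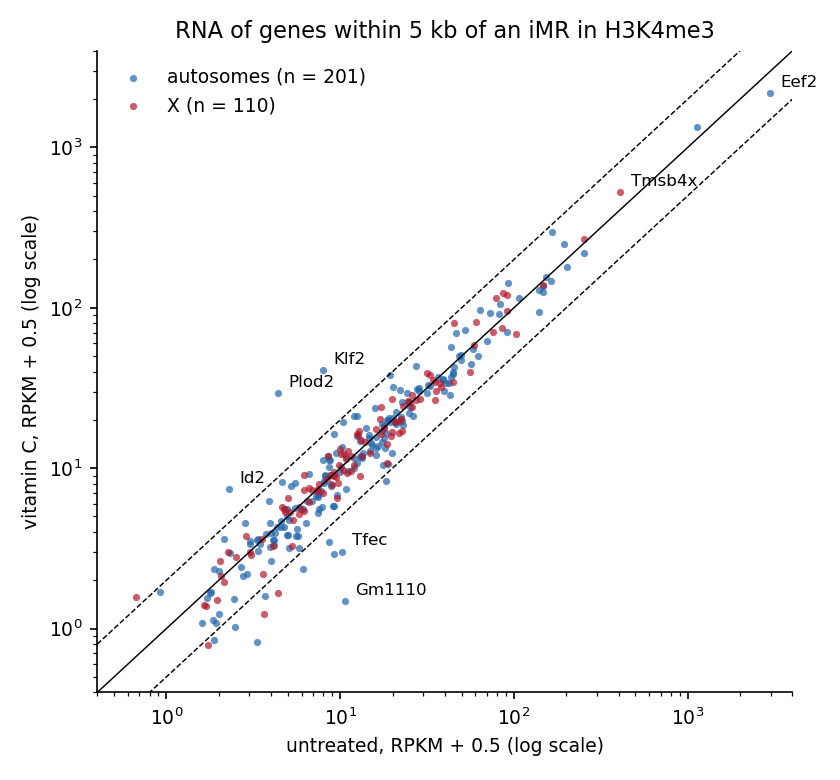
RNA of the 311 genes at 1 RPKM or more within 5 kb of an iMR in H3K4me3, untreated (x axis) against vitamin C (y axis), both as RPKM + 0.5 on log scales, 1 point per gene; the solid line marks equal values and the dashed lines 2-fold. Of the points, 4 lie above the upper dashed line, among them Plod2, Klf2 and Id2, and 13 below the lower one, among them Gm1110 and Tfec.

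The genes past 2-fold higher were led by Plod2, a collagen lysyl hydroxylase, which stood at 3.88 RPKM untreated and 28.8 with vitamin C, a ratio of 7.42 (95% interval of the reads 6.99 to 7.89). Klf2, a zinc finger transcription factor, had 7.46 and 40.5 RPKM (ratio 5.43, 5.08 to 5.81). Its member lay 846 bp from the start and outside H3K27ac with vitamin C. Id2, an inhibitor of helix-loop-helix factors, had 1.79 and 6.90 RPKM (ratio 3.86, 3.27 to 4.60). The fourth was Slc6a8, the X-linked creatine transporter, at 0.166 and 1.08 RPKM.

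Below 2-fold but among the 10 largest positive changes of genes at 5 RPKM or more were Pmaip1 (the BH3-only protein Noxa, 18.8 and 37.7 RPKM), Spry2 (an inhibitor of receptor tyrosine kinase signalling, 9.84 and 18.8), Adgre1 (the macrophage surface protein F4/80, 164.7 and 297.8), Pgrmc1 on X (a heme-binding membrane protein, 44.8 and 80.1), Sgms2 (a sphingomyelin synthase, 11.5 and 20.7), Gfod1 (8.75 and 15.7) and Vcan (4.15 and 7.65).

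The genes past 2-fold lower included Gm1110, at 10.1 RPKM untreated and 0.985 with vitamin C (ratio 0.0973, 0.0841 to 0.112). Tfec, a transcription factor of the MITF family, had 9.75 and 2.52 RPKM (ratio 0.259, 0.231 to 0.289). Sort1, the sorting receptor sortilin, had 8.68 and 2.42 RPKM (ratio 0.279, 0.264 to 0.295). Aff3, whose start the CG-dense stretch above precedes, had 8.13 and 2.98 RPKM (ratio 0.367, 0.347 to 0.388). Pde8a (a cAMP phosphodiesterase) had 5.65 and 1.85 RPKM, and Acot1 (an acyl-CoA thioesterase) 17.8 and 7.84. The others, Emx2, Tmem47, Lonrf3, H2-Ab1, Aldoc, Klrg2 and Ribc1, stayed below 5 RPKM in both libraries, and Tmem47, Lonrf3 and Ribc1 are on X.

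Within 2-fold but among the 10 largest negative changes of genes at 5 RPKM or more were Ppm1e (a protein phosphatase, 5.32 and 2.68 RPKM), Meis1 (a homeobox partner of HOXA9, 18.3 and 10.0), Gria3 on X (a glutamate receptor subunit, 18.1 and 10.3) and Zscan26 (a zinc finger protein, 17.0 and 9.92). In the authors' deposited table of genes higher with vitamin C, 13 genes lay within 5 kb of a member (2.89% of that list's 450 and 2.86% of the 455 near genes, while the list is 2.01% of all genes measured). The authors' deposited table of lower genes shared 12, Gm1110, Tfec, Sort1 and Aff3 among them. These were 5.43% of its 221 and 2.64% of the near genes, while the list is 0.988% of all genes measured. Near genes were more often expressed than all genes measured (68.4% against 46.6%), and the shares of both lists make no allowance for that.

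Of the 10 most abundant genes near members all but Adgre1 stayed within 1.5-fold. Eef2, a translation elongation factor, stood at 2987 RPKM untreated and 2169 with vitamin C, Ly6c2 (a myeloid surface protein) at 1122 and 1331, and Tmsb4x at 409.3 and 524.2. Slc25a5, whose X-linked sequence is shown above, had 250.7 and 268.6 RPKM, and Npm1 (the nucleolar protein nucleophosmin) 253.5 and 219.8. Thbs1, Por, Lrrc59 and Myh9 lay between 145.6 and 248.5 RPKM in both libraries.

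By gene list, members lay near 2.14% of all 21896 protein-coding genes with a start. Of 110 homeobox genes 6 were near (Dlx2, Irx5, Meis1, Nkx2-3, Otx1 and Pbx3), of which 2 reached 1 RPKM and 0 passed 2-fold. Of 89 genes with a forkhead, GATA, Sox or T-box prefix 7 were near, namely Foxf2, Foxo6, Gata2, Sox6, Sox8, Tbx2 and Tbxas1, the last a thromboxane synthase that shares the prefix alone. Gata2, a factor of blood stem cells, had 91.4 and 141.8 RPKM, Tbxas1 had 27.9 and 30.0, and the 5 others stayed at or below 0.117 RPKM. Of 18 imprinted genes 4 were near (Cdkn1c, Mest, Peg10 and Zrsr1), of which Zrsr1 alone was expressed, at 6.75 and 6.23 RPKM. From the cytosine methylation list, Tet3, a cytosine dioxygenase, had a member near and stood at 15.6 and 12.9 RPKM.

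The hypoxia list gave 1 of 18 (Plod2), the immediate early list 1 of 24 (Klf2), the histone demethylases 1 of 18 (Kdm4b, 15.4 and 23.1 RPKM) and the protocadherin clusters 1 of 57 (Pcdhga5). None of 24 myeloid regulators and granule genes and none of 16 germline genes had a member near. Solute carriers had 13 of 389, with 7 expressed and Slc6a8 past 2-fold higher. Genes with the prefix Zfp, Zscan or Zkscan had 17 of 427, with 12 expressed and 0 past 2-fold. Other zinc finger genes, such as Klf2, are not in that list. The lists were small, and no share was tested against the 2.14% of all genes.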

How the data were processed

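Processed files of 18 of the 24 samples were used. Per the submitters' processing notes the build was mm10, and the tools named, without their roles, were MACS2 2.1.0.2, Novoalign 3.02.08, BWA, Picard, CASAVA 1.8.2 and several versions of SAMtools. The RNA tables hold counts and RPKM per gene as the authors deposited them. Each histone peak has a deposited value that is a p-value or a q-value, and the PU.1 and Runx1 lists a deposited score without definition. Peaks are listed per library. WGBS, MeDIP and hMeDIP lists hold positions only, with calling rules not given in the sources used here.

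Overlaps of at least 1 bp were computed in Python 3.11.15 with pandas 2.3.3 and scipy 1.17.1, after removing repeated intervals. Interval functions were tested on simulated data. Gene starts came from RefSeq (GRCm38.p6, the assembly of mm10): 17491 protein-coding genes had a stranded start, and for 4405 others both span ends served. A RefSeq name was matched for 21000 of the 22371 genes measured by RNA-seq. The nearest gene is that of the nearest start within 5 kb. A gene counted as expressed at 1 RPKM in at least 1 library, and as changed past 2-fold after adding 0.5. Named genes were the 12 longest members, genes with 3 or more members, the 10 largest changes each way at 5 RPKM or more, the 10 highest RPKM, up to 10 members in MeDIP or hMeDIP lists, and list genes; other names were chosen after their values were seen. The full count of the cytosine methylation list is not reported here. Members and gene lists were chosen with earlier results of these data known. With 1 library per group, intervals cover counting error only.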

Additional observations from a re-analysis of the deposited data

How the results depend on the processing

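Of 94 alternative settings 62 kept a value within its counting interval, or moved a count by at most 1.5 times. The number of members ran from 657 to 760 and the X share of members from 23.4% to 26.0%.

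Shares of overlap moved with the overlap rule. H3K27ac untreated and vitamin C became 42.6% and 42.6% at an overlap over 50% of the region, 63.4% and 62.5% with a peak within 1 kb, and 33.6% and 36.3% with the stronger 50% of peaks. H3K4me1 became 47.5% and 34.6% within 1 kb, and 16.7% and 9.82% with stronger peaks. PU.1 became 27.5% and 10.7% within 1 kb, and untreated 3.49% at the stricter overlap and 4.52% with stronger peaks. Runx1 became 8.27% and 17.1% within 1 kb, 0.388% and 2.33% with stronger peaks, and 2.71% with vitamin C at the stricter overlap.

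The share of members near a start was 32.8% within 500 bp, 58.5% within 2 kb, 65.1% within 5 kb and 40.6% with stranded starts alone, the last chosen after seeing the data. Marked autosomal starts with a member were 1.18% within 500 bp and 2.80% within 5 kb, against 30.9% and 39.7% on X. Genes lower by 2-fold numbered 6 of 244 at 5 RPKM or more (2.46%, against 1.28% of all genes) and 20 of 444 without a distance limit (4.50% against 1.92%), and genes higher numbered 2 of 238 within 1 kb (0.840% against 2.38%). At 1.5-fold 20 genes were higher and 30 lower, against 6.21% and 6.64% of all genes. Of the 311 genes these are 6.43% and 9.65%, so the share higher was below that of all genes at 2-fold and above it at 1.5-fold. Scaling by size factors moved the median log2 change to −0.01 and that of all genes to 0.01. With the gene span holding the member the median was −0.02, above the −0.04 of all genes, whereas with the nearest start it was below. Depth of the WGBS and ChIP-seq libraries is unknown, so an absent peak may reflect depth. No paired analysis was possible because each group held 1 library.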
